A study of Mus musculus with 2 samples.

Results

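The 10 genes described here make up the core of oxygen sensing through the hypoxia-inducible factors (HIFs). They were chosen by name, as the genes with the GENCODE M21 symbols Hif1a, Epas1, Hif3a, Arnt, Egln1, Egln2, Egln3, Vhl, Hif1an and Vegfa, and all 10 were found among the 55536 annotated genes. Polyadenylated RNA of mouse embryonic liver at 12.5 days of development was sequenced in 2 libraries, with ERCC spike-ins mixed into 10 ng of starting RNA for each. Replicate 1 came from the pooled livers of 120 embryos and replicate 2 from the pooled livers of 88 embryos, both of strain B6NCrl, of both sexes, healthy, with no treatment or engineered allele named in the labels. The 2 libraries form a single group, so no condition could be compared and no p-value was computed. Pooling averages over embryos, and whole liver at this stage mixes blood-forming cells with hepatoblasts, endothelium and mesenchyme. A low level of a gene can therefore mean few cells of a type or little RNA in each cell, and bulk RNA cannot tell these apart.

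A HIF is a pair of proteins, an oxygen-regulated alpha subunit and the stable beta subunit ARNT, that binds DNA and switches on genes of glycolysis, red cell production and vessel growth. With oxygen present, the prolyl hydroxylases EGLN1, EGLN2 and EGLN3 modify the alpha subunit, the VHL protein then binds it, and a ubiquitin ligase built on VHL marks it for destruction. The asparaginyl hydroxylase encoded by Hif1an blocks the coactivators of what escapes. This control acts largely on protein, so message levels show which parts of the system a tissue transcribes and not how active HIF is.

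The summed expected counts were 38293265 in replicate 1 and 35399872 in replicate 2, of which annotated genes took 37190042 and 34291772. The 10 genes together held 15049.5 and 14424.3 counts. An expected count is the number of reads the authors' quantification assigned to a gene. TPM, a length-normalised abundance, divides it by effective length and rescales to a fixed total, so that levels of different genes can be compared. Spike-ins took 4.99% of TPM in replicate 1 and 5.40% in replicate 2. Markers of the cell types listed for the organ were all above 0 in both libraries, with summed TPM of 106196 and 109160 for 8 red cell markers, 6724.88 and 6536.32 for 8 hepatoblast markers, 371.16 and 378.48 for 7 mesenchymal markers and 201.3 and 187.13 for 9 endothelial markers. The globin genes Hba-a1 and Hbb-bs made up most of the red cell sum, and Afp most of the hepatoblast sum. The 3 megakaryocyte markers summed to 834.65 and 726.11 TPM and the 4 macrophage markers to 84.78 and 82.22 TPM. Coordinates are on mm10 with GENCODE M21.

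All 10 genes were transcribed at 1 TPM or more in both libraries, and 6 of them reached 10 TPM. Egln2, Hif1a, Arnt, Hif3a, Hif1an and Vhl formed an upper group between 11.65 and 34.99 TPM, and Egln1, Egln3, Vegfa and Epas1 a lower group between 1.10 and 3.59 TPM. The median of the 10 was 13.6 ± 0.223 TPM (SD, n = 2), against 1.87 TPM over 21951 protein-coding genes, of which 32.1% had a mean of at least 10 TPM and 54.5% of at least 1 TPM. The highest gene, Egln2, stood 25.2-fold above the lowest, Epas1.

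**Figure D1:**
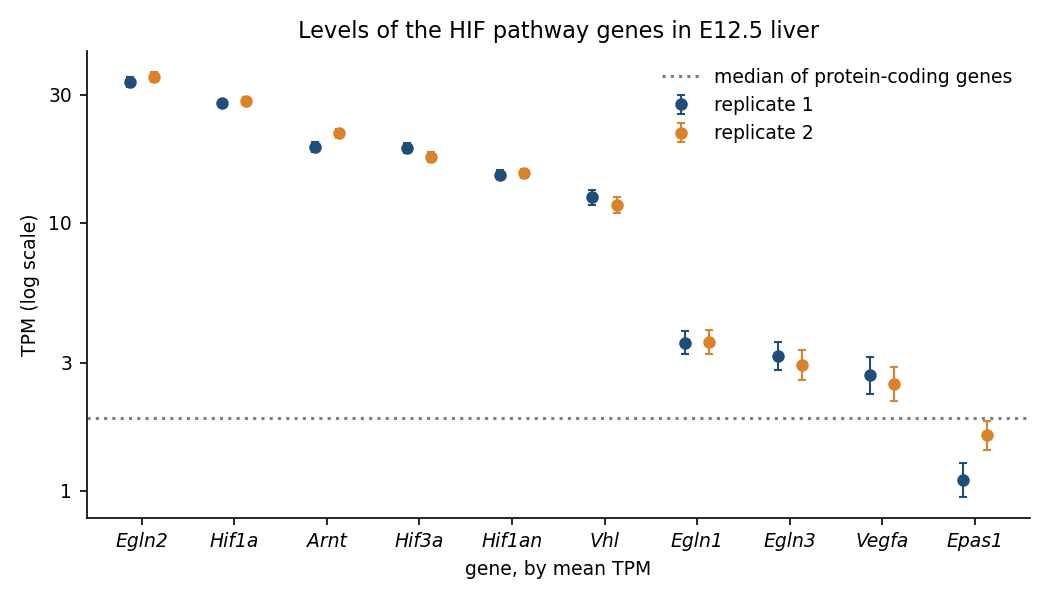
TPM on a log scale for each of the 10 genes in replicate 1 (blue) and replicate 2 (orange), in order of mean TPM, with bars for the exact 95% Poisson interval of the count behind each value and a dotted line at the median of protein-coding genes. The first 6 genes lie between 11.65 and 34.99 TPM, the other 4 at or below 3.59 TPM, and Epas1 lies under the dotted line at 1.87 TPM.

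In this order of levels, 9 pairs of genes were neighbours, and in each pair both libraries of the higher gene lay above both libraries of the lower one. Counting error blurred 3 of these steps, because the exact 95% Poisson intervals of the neighbours overlapped in at least 1 library. These were Arnt over Hif3a, which overlapped in replicate 1, and Egln1 over Egln3 and Egln3 over Vegfa, which overlapped in both. The mean difference between Arnt and Hif3a was 2.02 TPM, close to the SD of Arnt itself, 1.71 TPM. The other 6 steps were larger than these intervals in both libraries. The intervals leave out how reads were divided among transcripts, on which TPM also depends. Of Hif3a TPM, 3.23 and 2.69 came from the 371-base transcript Hif3a-203, on 28.71 and 22.17 counts. Of Hif1an TPM, 2.59 and 2.64 came from the 868-base transcript Hif1an-202, on 65 and 61.46 counts. The step of Hif3a over Hif1an, 3.1 TPM on average, depends on these short transcripts. The intervals describe the counting of reads and not the variation between litters, and duplicates made by PCR were not marked by molecular identifiers.

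Among the alpha subunits, Hif1a and Hif3a supplied nearly all of the message and Epas1 little. Hif1a (ENSMUSG00000021109.13, chr12:73901375-73947530, plus strand), the subunit found in most cells, had 27.92 TPM in replicate 1 and 28.51 in replicate 2, from 3853.51 and 3694.28 counts. Hif3a (ENSMUSG00000004328.15, chr7:17031507-17062427, minus strand), some products of which restrain the other HIFs, had 18.99 and 17.65 TPM from 2221 and 2025 counts. Epas1 (ENSMUSG00000024140.10, chr17:86753700-86833410, plus strand), which encodes HIF-2 alpha and is known from endothelium and from cells that make erythropoietin, had 1.10 and 1.61 TPM from 194 and 264 counts. The 3 genes kept this order in both libraries, and their values did not overlap.

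Summed over the family, the alpha subunits had 48.01 TPM in replicate 1 and 47.77 in replicate 2. Hif1a made up 58.2% and 59.7% of that sum (mean 58.9% ± 1.08, SD, n = 2), and Hif3a 39.6% and 36.9% (38.3% ± 1.84). Epas1 made up 2.29% and 3.37% (2.83% ± 0.763). The Hif1a level was 25.4-fold the Epas1 level in replicate 1 and 17.7-fold in replicate 2, a log2 ratio of 4.41 ± 0.37. It was 1.47-fold and 1.62-fold the Hif3a level, a log2 ratio of 0.62 ± 0.10. Hif3a stood 17.3-fold and 11.0-fold above Epas1. The ratios to Epas1 spread more than the ratio of Hif1a to Hif3a. The Hif3a level in these shares and ratios includes 3.23 and 2.69 TPM from the 371-base transcript Hif3a-203, on 28.71 and 22.17 counts.

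Arnt (ENSMUSG00000015522.18, chr3:95434388-95497240, plus strand), the partner that all alpha subunits need and that also serves the aryl hydrocarbon receptor, had 19.13 TPM in replicate 1 and 21.55 in replicate 2, from 2275 and 2273 counts. The counts were nearly equal while the TPM was higher in replicate 2, which was the smaller library and had the shorter effective length for this gene. The TMM library size of replicate 1 was 1.08 times that of replicate 2, and the effective length was 3640.17 bases in replicate 1 and 3487.73 bases in replicate 2. Hif1a exceeded Arnt 1.46-fold and 1.32-fold (log2 0.47 ± 0.10). The alpha subunits together, at 48.01 and 47.77 TPM, had more message than their common partner in both libraries.

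Among the prolyl hydroxylases, Egln2 held most of the message. Egln2 (ENSMUSG00000058709.11, chr7:27158658-27166802, minus strand) had 33.43 TPM in replicate 1 and 34.99 in replicate 2, from 2119 and 2087 counts, the highest level of the 10 genes in each library. Egln1 (ENSMUSG00000031987.6, chr8:124908587-124949324, minus strand), the main oxygen sensor of most cells and the enzyme whose loss in mice raises red cell numbers, had 3.57 and 3.59 TPM from 408 and 380 counts. Egln3 (ENSMUSG00000035105.5, chr12:54178981-54203860, minus strand), itself a HIF target, had 3.19 and 2.95 TPM from 267 and 229 counts. Egln1 and Egln3 lay close together, and both far below Egln2.

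Egln2 made up 83.2% and 84.3% of the summed TPM of the 3 hydroxylase genes (mean 83.7% ± 0.758, SD, n = 2), which came to 40.19 TPM in replicate 1 and 41.53 TPM in replicate 2. Egln1 made up 8.88% and 8.64% (8.76% ± 0.169), and Egln3 7.94% and 7.10% (7.52% ± 0.590). The log2 ratio of Egln1 over Egln2 was -3.26 ± 0.04. Egln2 stood 10.5-fold above Egln3 in replicate 1 and 11.9-fold in replicate 2, a log2 ratio of 3.48 ± 0.13. The ratio of Egln1 over Egln3 was smaller, 1.12-fold and 1.22-fold, and the counting intervals of these 2 genes overlapped.

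**Figure D2:**
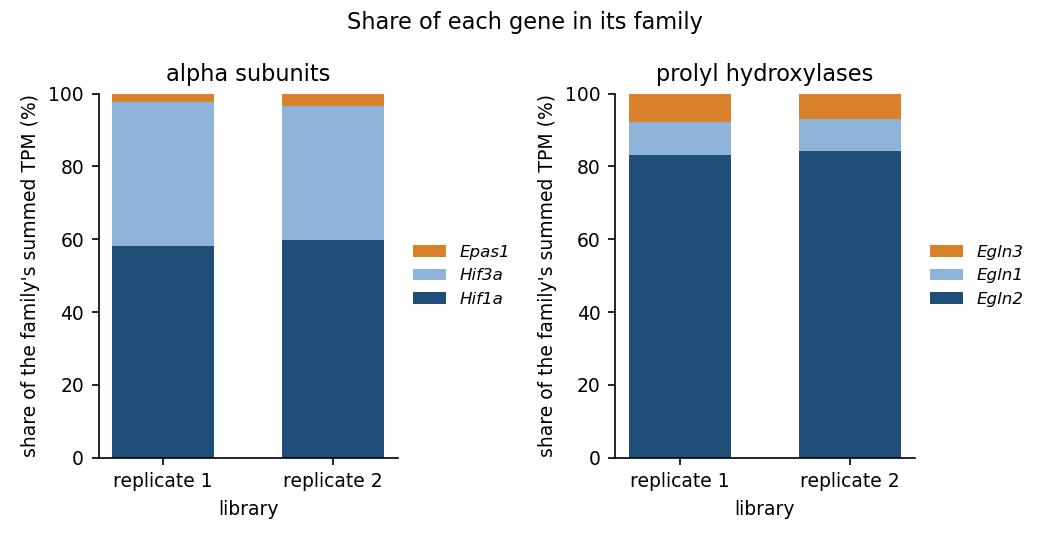
Share of each gene in the summed TPM of its family, in percent, for the alpha subunits (left) and the prolyl hydroxylases (right), with 1 bar per library. Hif1a and Hif3a fill all but 2.29% and 3.37% of the alpha subunit bars, and Egln2 fills 83.2% and 84.3% of the hydroxylase bars.

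Hif1an and Vhl stood lowest in the upper group. Hif1an (ENSMUSG00000036450.4, chr19:44562850-44576274, plus strand) had 15.13 TPM in replicate 1 and 15.30 in replicate 2, from 2563 and 2395 counts. Its log2 ratio to Egln2 was -1.17 ± 0.04. Vhl (ENSMUSG00000033933.13, chr6:113623959-113631633, plus strand), the part of the ligase that recognises the hydroxylated subunit, had 12.45 and 11.65 TPM from 987 and 891 counts. Its log2 ratio to Hif1a was -1.23 ± 0.09. The asparaginyl hydroxylase gene thus stood above Egln1 and Egln3 in both libraries, and Vhl did too.

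Vegfa (ENSMUSG00000023951.17, chr17:46016993-46032369, minus strand), the HIF target that draws blood vessels into tissue, had 2.70 TPM in replicate 1 and 2.51 in replicate 2. Its counts, 162 and 186, were in the opposite order, because the effective length was 1837.18 bases in replicate 1 and 2452.49 bases in replicate 2. Those lengths depend on how reads were divided among 13 annotated transcripts. Which library was higher for Vegfa therefore depended on whether counts or TPM were read.

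The 2 pools were compared gene by gene to see how far the members vary between biological replicates. After TMM scaling of the counts, the interval of a gene's ratio was taken from the exact binomial distribution at 95%. A gene was called where its ratio was past 2-fold and this interval did not hold the equal split. None of the 10 genes was called (edgeR TMM scaling, 0 of 10, 0 also with DESeq2 size factors), beside 2.35% of the 17343 genes with a mean count of at least 10. Of the genes with a mean count of at least 50, a level that all 10 exceed, 0.358% were called. With no p-value in a single group, the interval alone at any fold is the looser measure, and it lay off an equal split for 4 of 10 genes, beside 22.6% of the 17343 genes. The median absolute log2 ratio was 0.075 over the 10 genes and 0.10 over all genes tested. All genes tested include genes with far fewer counts than the 10. Neither this median nor the 22.6% is matched for count, so they do not show whether the 10 vary less or more. The comparison is between 2 libraries and not between conditions.

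Epas1 had the largest ratio of the 10, with 194 counts in replicate 1 and 264 counts in replicate 2 and a log2 ratio of -0.56 (95% interval -0.84 to -0.29). Of all genes tested, 9.62% had a larger absolute ratio, and of the 988 genes whose mean count was within 1.25-fold of that of Epas1, 2.02% did. Vegfa followed with -0.31 (-0.63 to -0.004), and its interval ended just short of the equal split, while the deposited TPM gave 0.10. Arnt at -0.11 and Egln2 at -0.09 were small differences, on 2275 and 2273 counts and on 2119 and 2087 counts, and with spike-in scaling they turned to 0.0076 for Arnt and 0.028 for Egln2. The other 6 genes lay between -0.06 for Hif1a and 0.11 for Egln3, and their intervals held the equal split. Spike-in scaling adds 0.12 to every ratio, so which intervals hold the equal split depends on the scaling. Of genes matched by the same 1.25-fold rule, 12.6% had a larger absolute ratio than Arnt, 18.8% than Vegfa and 23.7% than Egln2. The figure was 38.8% for Hif1a and between 58.7% and 92.6% for Hif3a, Egln1, Egln3, Vhl and Hif1an.

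Some cell type markers had ratios in the same direction as Epas1. Of the 7 mesenchymal markers 5 were lower in replicate 1, with a median log2 ratio of -0.16 and with Pdgfra at -0.39 and Pdgfrb at -0.23, although Dcn at 0.28 and Lum at 0.14 were higher there. Of the 9 endothelial markers 4 were lower in replicate 1, with a median of 0.01. The same held for 5 of 8 red cell, 3 of 8 hepatoblast, 2 of 4 macrophage and 0 of 3 megakaryocyte markers. The median log2 ratio of all genes tested was 0.0001 after TMM scaling, and spike-in scaling adds 0.12 to every ratio. The part of these cell types in the Epas1 difference was not tested.

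**Figure D3:**
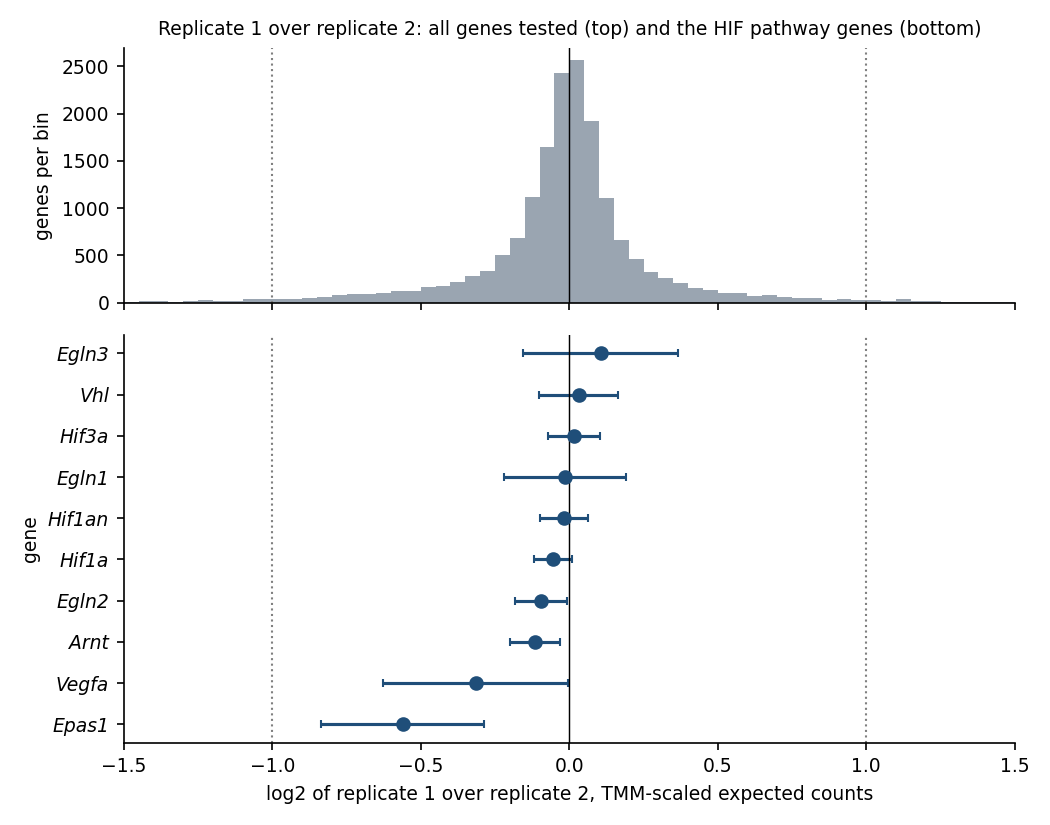
Top, the number of genes per bin of the log2 ratio of replicate 1 over replicate 2 for the genes tested that lie within the plotted range; bottom, the ratio of each of the 10 genes with its exact 95% binomial interval. Dotted lines mark 2-fold; all 10 genes lie between them, and Epas1 at -0.56 lies farthest from 0.

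Transcripts of the 10 genes were quantified separately, and 15 of the 47 annotated ones held at least 10% of their gene's TPM in both libraries. Egln1 and Egln3 each have 1 annotated transcript. In the deposited TPM a single coding transcript took all of Epas1. The leading coding transcript took 95.4% ± 0.273 (SD, n = 2) of Egln2 TPM and 91.4% ± 2.88 of Vhl TPM. By posterior mean TPM these shares were lower, with means of 86.7% for Epas1, 94.3% for Egln2 and 86.5% for Vhl. In Hif1a, Hif3a, Arnt and Hif1an at least 2 transcripts passed 10% in both libraries. Of the 47 transcripts, 12 were listed at 0 in both libraries. The division of short reads among overlapping transcripts is uncertain. The posterior SD of the count, deposited by the authors, is given for Hif1a-202, Arnt-203 and Vegfa-202.

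Most Hif1a message was assigned to transcripts with the downstream first exon. Mouse Hif1a is known to have a first exon upstream of the common one, from which the protein starts at a later methionine codon. Hif1a-201 begins in the downstream exon (chr12:73907904-73908324) and Hif1a-202 begins 6529 bases upstream of it (chr12:73901375-73901498). In the annotation the coding sequence of Hif1a-202 lacks the first 12 codons of Hif1a-201, in frame, as well as a stretch of 42 bases farther on. Both are shown from the annotated transcripts because they are what tells the 2 forms apart. Capitals mark the bases present in Hif1a-201 and missing from the coding sequence of Hif1a-202, and lower case the shared bases around them.
Hif1a-201 coding start (chr12:73908290-73926581, plus strand, spliced): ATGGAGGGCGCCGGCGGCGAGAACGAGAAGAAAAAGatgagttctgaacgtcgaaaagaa
Hif1a-201 stretch (chr12:73940620-73941741, plus strand, spliced): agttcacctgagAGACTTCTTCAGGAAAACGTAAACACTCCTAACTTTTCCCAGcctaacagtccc

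Hif1a-201 held 73.5% of Hif1a TPM in replicate 1 and 72.3% in replicate 2 (mean 72.9% ± 0.878, SD, n = 2). Hif1a-202 held 18.0% and 20.6% (19.3% ± 1.87), from 701.27 and 761.55 counts with a posterior SD of 86.6 and 100.6. Among the coding transcripts that hold either first exon, the upstream exon took 19.4% and 21.8% of TPM and 18.4% and 20.8% of counts. The share was similar in both pools and on both scales. It rests on the upstream exon and on the 42-base stretch together, so these files do not give the use of either alone.

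Hif3a message was divided between transcripts with a pair of first exons that lie 5748 bases apart at their starts. Mouse Hif3a is known for products with different first exons, among them inhibitory forms. Hif3a-202 begins in the upstream exon (chr7:17062356-17062427) and Hif3a-201 in the downstream exon (chr7:17056577-17056679), and Hif3a-202 also ends 4227 bases beyond Hif3a-201. Their coding sequences share 1966 bases and differ at the start, where Hif3a-202 has 26 bases and Hif3a-201 has 20 bases of its own. The first 60 coding bases of each are shown, with the first exon's bases in capitals and the exon that both share in lower case.
Hif3a-202 coding start (chr7:17056417-17062381, minus strand, spliced): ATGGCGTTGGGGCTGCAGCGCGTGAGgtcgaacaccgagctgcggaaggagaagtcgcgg
Hif3a-201 coding start (chr7:17056411-17056596, minus strand, spliced): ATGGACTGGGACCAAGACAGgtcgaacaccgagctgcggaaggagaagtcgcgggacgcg

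Hif3a-202 held 42.6% of Hif3a TPM in replicate 1 and 46.9% in replicate 2 (mean 44.7% ± 3.05, SD, n = 2), and Hif3a-201 held 40.4% and 37.9% (39.1% ± 1.80). The 2 main forms thus stood near each other per length, and Hif3a-202 was the higher in both libraries. By counts the upstream exon was far ahead, with 75.9% and 78.7% of the counts of transcripts with either first exon, against 51.3% and 55.3% of their TPM. Hif3a-202 is 6402 bases long and Hif3a-201 2206 bases, and TPM divides by that length. Hif3a-203, a 371-base fragment inside the gene, held 16.1% ± 1.25 of TPM on 28.71 and 22.17 counts.

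Most Arnt message was assigned to transcripts without a short exon. Arnt is known in forms with and without this exon, which lies early in the coding sequence. The exon has 45 bases (chr3:95466793-95466837) and is present in Arnt-203 and missing from Arnt-202. It is shown in capitals, with 12 shared coding bases in lower case on either side, because it is what sets the forms apart.
Arnt-203 exon (chr3:95460410-95470188, plus strand, spliced): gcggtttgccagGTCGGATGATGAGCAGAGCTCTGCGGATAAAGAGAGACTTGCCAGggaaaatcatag

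Arnt-202 held 66.9% of Arnt TPM in replicate 1 and 57.2% in replicate 2 (mean 62.0% ± 6.83, SD, n = 2), and Arnt-203 held 13.4% and 15.3% (14.3% ± 1.34). Of the TPM of the 7 transcripts that span the site, 18.7% and 22.3% included the exon, and of their counts 13.6% and 16.0%. The sums with the exon take in retained-intron transcripts besides Arnt-203. These were Arnt-209, with 0 and 21.77 counts, and Arnt-210, with 86.44 and 75.21 counts. The form without it was ahead in both libraries. Arnt-203 rested on 217.06 and 258.44 counts, with a posterior SD of 37.6 and 38.8. Of the 11 annotated transcripts of Arnt, no other passed 10% in both libraries.

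Hif1an had 2 transcripts past 10%. The coding transcript Hif1an-201 held 82.8% ± 0.105 of TPM, and the short retained-intron transcript Hif1an-202 held 17.2% ± 0.105. The retained intron rested on 65 and 61.46 counts, 2.55% of the gene's counts, and its share is large per length because it is only 868 bases long. The 2 libraries agreed within 0.105 percentage points SD.

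The splice forms of Vegfa could not be resolved in these libraries. Vegfa is known for forms that include or skip a pair of neighbouring exons that encode stretches binding heparin, and forms without either diffuse freely. The short exon has 72 bases (chr17:46022277-46022348) and the long one 132 bases (chr17:46020991-46021122). They are shown as spliced together in Vegfa-207, with the short exon in capitals, then the long exon in lower case, and 12 coding bases on either side.
Vegfa-207 exons (chr17:46018868-46024076, minus strand, spliced): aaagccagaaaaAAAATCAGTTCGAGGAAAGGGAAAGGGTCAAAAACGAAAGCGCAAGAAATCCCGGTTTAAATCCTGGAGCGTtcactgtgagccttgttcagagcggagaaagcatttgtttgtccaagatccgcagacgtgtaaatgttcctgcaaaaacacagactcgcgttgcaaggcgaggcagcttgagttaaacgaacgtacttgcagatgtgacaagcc

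Coding transcripts with neither exon held 69.4% of coding Vegfa TPM in replicate 1 and 18.6% in replicate 2, and transcripts with the long exon alone held 30.6% and 81.4%. Under M21 the libraries thus put opposite forms first. Under M4 a transcript with neither exon led in both libraries, with 41.7% of gene TPM each time. It was Vegfa-201 in replicate 1 and Vegfa-211 in replicate 2, while Vegfa-202, with the long exon, had 19.1% and 29.0%. Transcripts with both exons, and the transcript with the short exon alone, were listed at 0 in both libraries under M21. The authors' posterior mean values gave 16.5% and 15.9% of coding TPM to both exons and 6.45% and 6.91% to the short exon alone. Under M4, Vegfa-207, with both exons, had 17.0% of gene TPM in replicate 1 and 0 in replicate 2. These shares rest on 162 and 186 counts for the whole gene. Vegfa-202, with the long exon, was the only transcript past 10% in both libraries, at 25.3% of gene TPM in replicate 1 and 61.2% in replicate 2. Its counts were 74.97 and 155.4, with a posterior SD of 20.2 and 16.3.

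**Figure D4:**
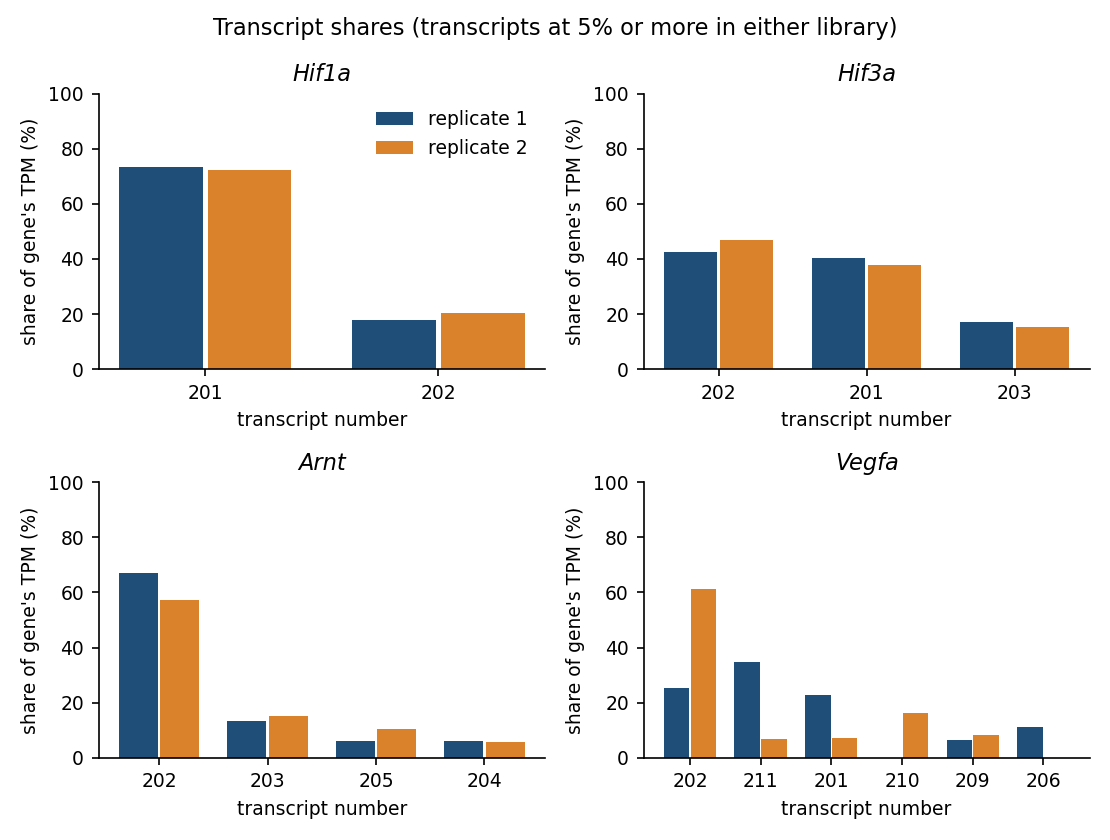
Share of each transcript in its gene's TPM, in percent, for Hif1a, Hif3a, Arnt and Vegfa, with blue bars for replicate 1 and orange bars for replicate 2 and transcripts at 5% or more in either library. Hif1a-201 leads at 73.5% and 72.3%, Hif3a-202 and Hif3a-201 stand near each other, and Vegfa-202 differs between the libraries at 25.3% and 61.2%.

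Genes that overlap the members could share reads with them, and whether the counting used strand is not given in the sources used here. Of the 10 genes, 5 overlap another annotated gene. The largest case was Hif1a, with the coding gene Gm49321 on the same strand (43.69 and 60.43 counts, 3.87 and 5.77 TPM) and the antisense gene Gm15283 (10.65 and 8.63 counts). Hif1a was also the only member with a posterior SD of the gene count above 0, at 2.34 and 2.84 counts. The genes that overlap Epas1, Hif3a, Arnt and Egln2 had 0 to 9 counts each.

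Each library was quantified under both GENCODE M21 and the earlier M4. None of the 10 genes passed 1.5-fold in both libraries (0 of 10), beside 5.38% of the 13620 genes at 1 TPM or more under either annotation, and 7 of the 10 had the same counts under both. On the scale of log2((TPM + 1)/(TPM + 1)), 8 of the 10 were lower under M21 in both libraries, as was the median of all genes, -0.04. Vhl was higher under M21, with 12.45 and 11.65 TPM under M21 against 11.64 and 11.36 TPM under M4 on equal counts. Vegfa had 2.70 and 2.51 TPM under M21 against 2.35 and 2.52 TPM under M4. Epas1 gained 9 and 18 counts under M21.

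Other genes of the pathway were read from 8 lists of 89 genes drawn from general knowledge. Their median was 11.5 TPM, and as the mean of both libraries 75 had at least 1 TPM and 46 at least 10 TPM. None of the 84 that could be compared between replicates was called at 2-fold (edgeR TMM scaling), beside 2.35% of all genes tested. Of the genes with a mean count of at least 50, 0.358% were called, although some of the 84 lie below that level, such as Epo with 40.01 and 26 counts. Neither share is matched for count, so 0 of 84 does not set these genes apart. The interval lay off an equal split for 28 of 84, beside 22.6% of all genes tested. This background is not matched for count, and the interval is narrower at high counts. The lists differ in kind, and the highest values belong to genes that most cells use for purposes other than HIF.

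The wider family of bHLH-PAS factors, to which the alpha subunits and ARNT belong, was low. The median of 12 relatives was 0.39 TPM, with 3 at 1 TPM or more and none at 10 TPM. Arntl, the clock factor that pairs with CLOCK, led with 4.50 and 4.73 TPM, then Clock with 3.01 and 3.39 TPM, and Ahr, the aryl hydrocarbon receptor, with 3.04 and 2.57 TPM. Sim1 had 0 and 4 counts and Npas4 had 0 counts in both libraries. Arnt at 19.13 and 21.55 TPM stood above each of these relatives in both libraries.

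The partners of VHL in its ligase were abundant, with 9 of 9 at 1 TPM, 8 at 10 TPM and a median of 124 TPM. Elob, an elongin that binds VHL, had 504.58 and 491.38 TPM, the ring protein gene Rbx1 had 280.06 and 320.92 TPM, and Nedd8, which activates cullins, had 270.08 and 274.97 TPM. The lowest were the deubiquitinase genes Usp20, with 6.38 and 7 TPM, and Usp33, with 25.23 and 25.84 TPM. Vhl itself, at 12.45 and 11.65 TPM, lay above only Usp20 among these genes. Most of the partners also serve other ligases.

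The 13 genes of HIF cofactors and stability had a median of 20.1 TPM, with 13 at 1 TPM or more and 9 at 10 TPM or more. The chaperone genes Hsp90aa1, with 1008.91 and 918.78 TPM, and Hsp90ab1, with 920.99 and 841.91 TPM, led, followed by Rack1, which competes with HSP90 for HIF-1 alpha, with 643.78 and 614.74 TPM. The lowest were the coactivator gene Ncoa1, with 1.61 and 1.95 TPM, and Siah2, a ligase for EGLN proteins, with 4.72 and 4.67 TPM. The list was spread over a wide range.

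The 7 other oxygen-dependent dioxygenase genes had a median of 17.2 TPM, with 7 at 1 TPM or more and 5 at 10 TPM or more. Jmjd6 led with 51.68 and 48.66 TPM, then the histone demethylase gene Kdm5a with 29.21 and 28.06 TPM and Ado, the enzyme of an oxygen-sensing route through cysteine oxidation, with 22.83 and 21.71 TPM. P4htm, a transmembrane prolyl hydroxylase, was lowest with 0.89 and 1.13 TPM, and the demethylase gene Kdm4c had 6.22 and 6.37 TPM. Egln2 lay above all of these but Jmjd6 in both libraries.

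Metabolic genes known as HIF targets had 16 of 16 at 1 TPM and 12 at 10 TPM, with a median of 188 TPM. Ldha led with 1500.73 and 1404.21 TPM, Gapdh had 1321.33 and 1253.26 TPM and Eno1 had 1125.39 and 1037.38 TPM, all enzymes of glycolysis or lactate formation. Pfkfb4, with 2.82 and 3.69 TPM, and Aldoc, with 4.27 and 3.90 TPM, were lowest. Gapdh and other members of this list have near-identical pseudogenes, so their division of reads is uncertain. These are also general glycolytic genes, and their level in a single group does not measure HIF activity.

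The 23 other HIF targets had a median of 6.99 TPM, with 19 at 1 TPM or more and 9 at 10 TPM or more. The transferrin receptor gene Tfrc led with 274.05 and 283.82 TPM, then Higd1a, a mitochondrial protein gene, with 121.31 and 112.60 TPM, and the haem oxygenase gene Hmox1 with 72.12 and 77.88 TPM. The carbonic anhydrase gene Car12 was among the lowest, with 0.24 and 0.38 TPM. Epo, which encodes erythropoietin and is the target that links oxygen to red cell number, had 1.94 TPM in replicate 1 and 1.40 in replicate 2, from 40.01 and 26 counts, and the interval of its ratio held the equal split. Its receptor gene Epor, a red cell gene, had 132.44 and 129.87 TPM.

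Vegfa was set beside its relatives and receptors. Of the other VEGF ligands, Vegfb had 19.47 and 19.48 TPM, Vegfc, the lymphatic ligand, had 4.51 and 4.41 TPM, Pgf had 0.81 and 1.31 TPM and Vegfd had 0.88 and 1.04 TPM. Vegfa at 2.70 and 2.51 TPM thus lay below Vegfb and Vegfc and above Pgf and Vegfd in both libraries. Of the receptors, Nrp1 had 26.84 and 27.40 TPM, Kdr, the main signalling receptor of VEGFA, 15.61 and 13.96 TPM, and Flt1 6.41 and 6.69 TPM. Flt4 had 3.91 and 4.01 TPM and Nrp2 2.08 and 1.70 TPM. The Nrp1, Kdr, Flt1 and Flt4 levels stood above that of Vegfa in both libraries, and the Nrp2 level stood below it.

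**Figure D5:**
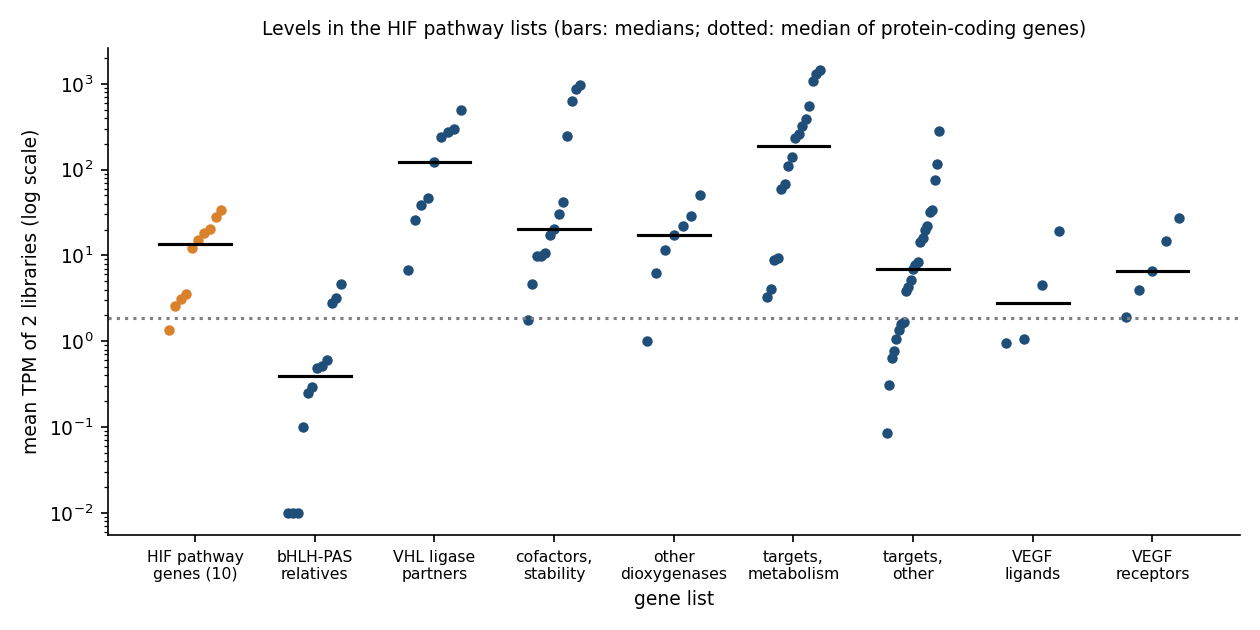
Mean TPM of the 2 libraries on a log scale for each gene of the 10 HIF pathway genes (orange) and of the 8 other lists (blue), with a bar at each list's median and a dotted line at the median of protein-coding genes; Npas4, at 0 TPM, is drawn at 0.01. List medians lie between 0.39 TPM for the bHLH-PAS relatives and 188 TPM for the metabolic targets.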

How the data were processed

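The 2 libraries are polyA RNA-seq of E12.5 liver, made with the mirVana, SMARTer Ultra Low and Nextera kits, per the labels. Per the file headers, the deposited tables hold expected counts, TPM and FPKM made by the authors per gene and transcript, with the posterior SD of the count and, for transcripts, the isoform percent deposited by the authors as well. The tables are on mm10 with GENCODE M21 or M4. The aligner, quantifier and strand setting were not given in the sources used here. Levels, family shares and transcript shares were computed from deposited TPM. Expected counts, rounded to whole numbers for intervals, were compared between libraries after TMM scaling (edgeR 4.0.16, R 4.3.3) with a prior count of 0.5, where the mean count was 10 or more. The calling was run on simulated data with planted changes well past 2-fold in genes of higher count. Planted changes near 2-fold or at low counts were not tested. Exact Poisson and binomial intervals came from scipy 1.17.1 and cover counting error only. The annotations were compared as log2((TPM + 1)/(TPM + 1)). Entries with no gene (spike-ins and 26248 with bare numbers) took 2.88% and 3.13% of counts and were left out. Fixed alternatives were DESeq2 1.42.0 size factors, total and spike-in scaling, FPKM, posterior mean TPM, M4, other filters, thresholds and pseudocounts, and each library alone. Of 139 listed symbols 137 matched; Aldoa names 2 genes and Ero1a none. Named were the 10 genes, the 3 highest and 2 lowest of each pathway list (all of lists of up to 5), Epo, Epor, and transcripts at 10% in both libraries. A gene that this rule selects is not reported here. The members and lists were chosen with earlier results of these data known. Overlapping genes, the first-exon sums of Hif1a and Hif3a and the exon sums of Arnt and Vegfa were added with values in view. Sequences were read from the GENCODE M21 transcripts (GRCm38).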

Additional observations from a re-analysis of the deposited data

How the results depend on the processing

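Of the main values of each comparison, 53 recomputed values kept their direction and side and 3 moved, all with 1 TPM added before the ratio, namely log2 3.64 for Hif1a over Epas1, -2.94 for Egln1 over Egln2 and 3.11 for Egln2 over Egln3. The number of transcripts at a 10% share, 15 of 47, is among the 53 but changed with the setting. It was 12 with expected counts, 16 with posterior mean TPM and 15 under M4. A 5% share gave 21 and a 20% share 11, and replicate 1 alone gave 19 and replicate 2 alone 17. Of the values for single genes, transcripts and lists, 297 kept theirs, 49 moved (28 higher, 21 lower) and 9 reversed. The share of Vegfa-202 is among the 297, but its mean of 43.2% became 24.1% under M4, 26.0% by posterior mean TPM and 64.9% by expected counts. Spike-in scaling adds 0.12 (log2) to every ratio between replicates and by that shift turned Hif1a to 0.067, Arnt to 0.0076, Egln1 to 0.11, Egln2 to 0.028 and Hif1an to 0.10. Deposited TPM, which divides by effective length, turned Vegfa to 0.10. Between annotations, expected counts turned Epas1 to 0.085 and Egln1 to 0.0019, and Vegfa had 0.14 without replicate 2 and -0.0041 without replicate 1. The cause of the 3 reversals between annotations was not tested. With expected counts Hif3a-202 held 76.4% and Hif3a-201 22.4%. No paired analysis was possible because the 2 libraries form a single group. Depth limits Epas1, Egln3, Vegfa and Epo, among others, at 267 counts or fewer per library.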
